A study of Mus musculus with 6 samples.

Results

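Triglyceride assembly was examined in mouse liver through 10 genes of acyltransferases and lipins, taken by name from the 23284 genes of the count files, namely Gpam, Agpat2, Agpat3, Agpat6, Lpin1, Lpin2, Lpin3, Dgat1, Dgat2 and Mogat1. The RNA came from whole livers of male C57BL/6 mice 8 weeks of age, all of which were fasted overnight and stayed fasted until the end. In the vehicle group 3 mice received vehicle, and in the FGF19 group 3 mice received FGF19 at 1 mg/kg, with 6 h of treatment in both. FGF19 is the human counterpart of the mouse gut hormone FGF15 and was given as the human protein. The study asked whether this hormone lowers the expression of lipogenic genes in the liver. In bulk tissue, fewer cells of a type and less RNA per cell cannot be told apart.

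Hepatocytes build triglyceride on a glycerol 3-phosphate backbone. A glycerol-3-phosphate acyltransferase adds the first fatty acid to give lysophosphatidate, an AGPAT enzyme adds the next to give phosphatidate, a lipin removes the phosphate to give diacylglycerol, and a DGAT enzyme adds the last fatty acid. MOGAT enzymes reach diacylglycerol by another route, from monoacylglycerol. The triglyceride is stored in lipid droplets or secreted in very low density lipoprotein. Lipins also act in the nucleus as coregulators of transcription, and Lpin1 is known as a gene that fasting and glucocorticoids raise in liver.

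FGF19 treatment lowered Lpin1 2.24-fold and raised the much less abundant Lpin3 1.63-fold, while Lpin2, the other abundant lipin of these livers, did not pass the test in either direction. Gpam, Agpat6, Dgat1 and Dgat2 had lower means after FGF19, at 0.522, 0.737, 0.615 and 0.780 of vehicle, and did not pass an adjusted p of 0.05. The AGPAT genes of the next step, Agpat2 and Agpat3, were at 1.03 and 0.915 of vehicle. All 10 genes passed the filter on low counts, and 1 of them was called lower and 1 called higher (adjusted p under 0.05), where the same rule called 2.84% of the 12559 genes tested lower and 4.56% higher. The study's methods name a p under 0.01 without saying whether it was adjusted, and at an unadjusted p under 0.01 3 were lower (Lpin1, Gpam and Agpat6) and 1 higher (Lpin3), beside 4.98% and 6.2% of all genes tested. In 4 genes (Lpin1, Agpat6, Dgat1 and Dgat2) all 3 FGF19 values lay under the lowest vehicle value and in 1 (Lpin3) all lay over the highest, beside 13.8% and 14.5% of all genes. The median log2 fold change of the 10 genes was -0.31 and that of all genes tested was -0.00076.

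**Figure D1:**
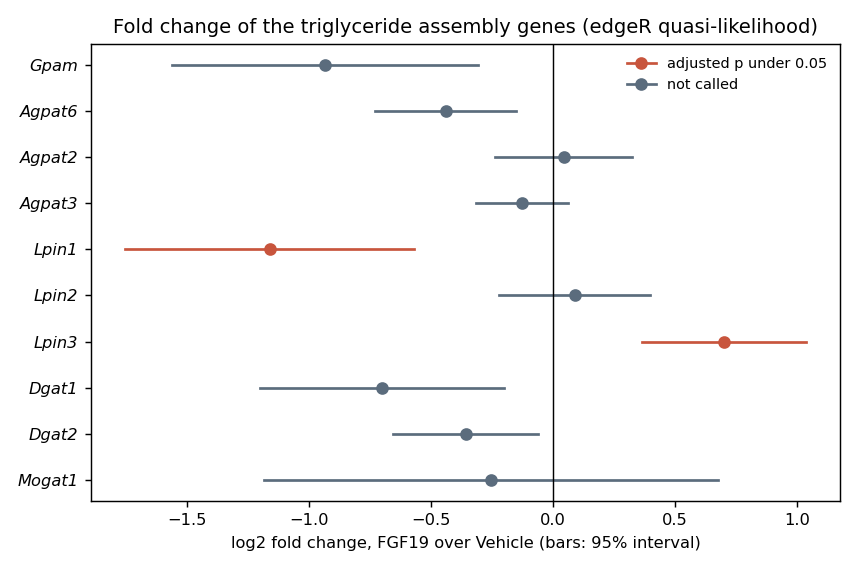
Log2 fold change of each of the 10 genes, FGF19 over vehicle, on the horizontal axis, with its 95% interval from edgeR's quasi-likelihood fit over 3 libraries a group; red marks an adjusted p under 0.05. Lpin1 lies at -1.16 and Lpin3 at 0.70, and the intervals of Agpat2, Agpat3, Lpin2 and Mogat1 cross 0.

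The sequence before the start of transcription is shown for the 3 lipins, whose mRNAs differed in their change, and for Gpam, because the study examined CpG dinucleotides at lipogenic promoters. RefSeq entries of build GRCm38.p6 were found for 7 of the 10 genes (Gpam, Agpat2, Agpat3, Lpin1, Lpin2, Lpin3 and Mogat1), with 11 promoters in all, each a window of 250 bases before to 50 bases after a start. Agpat6, Dgat1 and Dgat2 had no entry. The 250 bases before the start are printed 5′ to 3′ on the strand of the gene, with every CpG in capitals, for the only entry of Lpin1 and, of the several entries of the other 3 genes, for the one whose start lay nearest to the first counted exon.
Lpin1, chr12:16610967-16611216, minus strand: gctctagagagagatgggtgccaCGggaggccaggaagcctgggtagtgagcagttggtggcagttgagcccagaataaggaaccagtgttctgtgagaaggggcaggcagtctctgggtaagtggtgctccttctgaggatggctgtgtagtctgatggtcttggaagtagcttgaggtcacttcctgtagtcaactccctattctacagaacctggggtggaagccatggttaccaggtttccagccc
Lpin2, chr17:71183728-71183977, plus strand: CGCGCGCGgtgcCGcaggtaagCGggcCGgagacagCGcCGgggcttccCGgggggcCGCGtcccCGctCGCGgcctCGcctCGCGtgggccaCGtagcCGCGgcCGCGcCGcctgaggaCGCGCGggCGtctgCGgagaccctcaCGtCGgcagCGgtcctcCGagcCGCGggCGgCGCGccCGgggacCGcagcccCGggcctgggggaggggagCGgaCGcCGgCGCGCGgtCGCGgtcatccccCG
Lpin3, chr2:160880420-160880669, plus strand: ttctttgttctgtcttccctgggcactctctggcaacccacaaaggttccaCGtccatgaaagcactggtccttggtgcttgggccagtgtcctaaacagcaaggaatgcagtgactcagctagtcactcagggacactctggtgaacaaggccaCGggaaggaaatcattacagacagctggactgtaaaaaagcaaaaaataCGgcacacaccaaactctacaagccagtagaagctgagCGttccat
Gpam, chr19:55099478-55099727, minus strand: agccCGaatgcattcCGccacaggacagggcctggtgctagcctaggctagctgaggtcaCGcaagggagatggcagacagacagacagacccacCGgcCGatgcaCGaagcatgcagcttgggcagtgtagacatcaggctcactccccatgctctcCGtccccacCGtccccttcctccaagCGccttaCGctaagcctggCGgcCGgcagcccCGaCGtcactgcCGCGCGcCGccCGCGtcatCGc

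The printed Lpin1 stretch held 1 CpG, that of Lpin3 4, that of Gpam 21 and that of Lpin2 50. These counts depend on the entry: the other Lpin3 entry held 16 and the other Gpam entry 7, and the other Lpin2 entries held 26 and 3. Over the whole window of 300 bases the ratio of observed to expected CpG in the printed entries was 0.0919 for Lpin1, 0.321 for Lpin3, 0.873 for Gpam and 1.11 for Lpin2, and the median over the 32851 windows of the table was 0.384. Of all windows in the table, 14.1% held fewer CpGs than that of Lpin1 and 99.7% fewer than that of Lpin2. Windows with a ratio above 0.6 and a GC content above 50% made up 5 of the 11 of these genes and 33.3% of the table. Matched to the mm9 genome, the start in the Lpin1 entry lay 21196 bases upstream of the first Lpin1 exon in the count files, so this window does not lie at the start of the counted gene model. The printed Lpin2 and Lpin3 entries start where their counted exons start, and that of Gpam lies 30 bases upstream.

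The E-box CACGTG, a site that SREBP1, ChREBP and clock factors are known to bind, and the sterol regulatory element TCACNCCAC of SREBP were searched on both strands. An E-box was found in 2 of the 11 windows and in 7.15% of all windows. One was in another Lpin2 window, 9 bases before its transcription start, and that start lay 446 bases upstream of the counted exons. The other was in the printed Lpin3 window, from base 23 after its start. The sterol regulatory element as spelled was found in 0 of the 11 windows and in 1.24% of all windows. These matches only describe the letters of the windows.

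Lpin1 encodes lipin 1, a phosphatidate phosphatase and coactivator, and lies on chromosome 12 of mm9 from 16542475 to 16596576 on the minus strand. Its level in CPM (counts scaled to library size by TMM) was 354, 256 and 316 in vehicle replicates 1, 2 and 3 and 119.8, 206 and 88.2 in FGF19 replicates 1, 2 and 3. Each FGF19-treated mouse was below the lowest vehicle-treated mouse, and FGF19 replicate 2 stood nearest to that group. Mean levels were 309 ± 49.6 CPM in the vehicle group and 138 ± 60.8 CPM in the FGF19 group (SD, n = 3 each). On the log2 scale Lpin1 fell by 1.16 (95% interval -1.76 to -0.57, standard error 0.264), with an edgeR adjusted p of 0.0293. With fewer libraries the call was lost in 3 of 6 fits, at an adjusted p of 0.0931 without vehicle replicate 1, 0.104 without vehicle replicate 3 and 0.105 without FGF19 replicate 1 in the same edgeR test, with log2 fold changes of -1.05, -1.14 and -1.07.

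Lpin3, the lipin best known from intestine, lies on chromosome 2 from 160706406 to 160731736. It stood at 5.38, 6.41 and 5.56 CPM in vehicle replicates 1, 2 and 3 and at 9.30, 8.23 and 10.7 CPM in FGF19 replicates 1, 2 and 3. The groups did not overlap, on between 112 and 236 reads a library. Lpin3 rose by 0.70 on the log2 scale (95% interval 0.37 to 1.04, standard error 0.150), with an edgeR adjusted p of 0.0232. This call too was lost without vehicle replicate 1, vehicle replicate 3 or FGF19 replicate 1, with log2 fold changes of 0.65, 0.68 and 0.71 and adjusted p of 0.0819, 0.101 and 0.0776 in the same edgeR test. Lpin3 made up between 1.30% and 1.90% of the lipin level per kilobase in vehicle-treated mice and between 2.33% and 5.02% in FGF19-treated mice.

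Lpin2, a lipin known to be abundant in liver, lies on chromosome 17 from 71533318 to 71599158. It was at 316, 289 and 263 CPM in vehicle replicates 1, 2 and 3 and at 314, 362 and 246 CPM in FGF19 replicates 1, 2 and 3, so that the highest and the lowest mouse were both in the FGF19 group. Its log2 fold change was 0.09, with a 95% interval from -0.22 to 0.40 (adjusted p = 0.764, edgeR's quasi-likelihood test), which bounds a fall at 0.857 and a rise at 1.32 of vehicle.

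The makeup of the lipin mRNA pool, which does not depend on how libraries are scaled, differed without overlap. Counted per kilobase of exon, Lpin1 was 52.8%, 46.7% and 54.3% of the summed lipins in vehicle replicates 1, 2 and 3 and 27.1%, 35.9% and 25.5% in FGF19 replicates 1, 2 and 3. The means were 51.3% ± 4.04 and 29.5% ± 5.61 (SD, n = 3 each; two-sided exact permutation test, p = 0.1, the smallest that 3 against 3 allows). Lpin2 was between 0.812 and 1.10 times as abundant as Lpin1 per kilobase in vehicle-treated mice and between 1.72 and 2.72 times in FGF19-treated mice. Lpin2 was thus the leading lipin in 3 of 3 FGF19-treated mice and in 1 of 3 vehicle-treated mice. The summed lipin level still overlapped between the groups, at 117, 95.7 and 101.7 CPM per kilobase with vehicle and 77.1, 100.02 and 60.4 with FGF19.

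**Figure D2:**
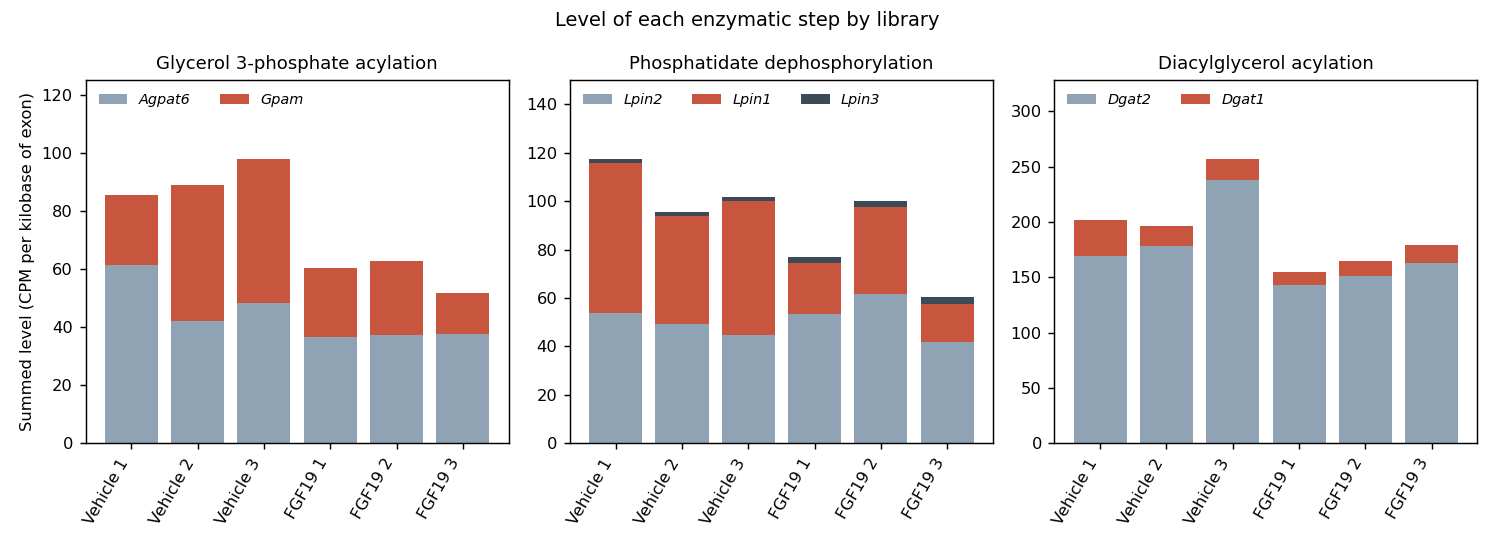
Level in CPM per kilobase of exon (vertical axis) in each of the 6 libraries (horizontal axis), stacked by gene, for the first acylation, the lipin step and the last acylation. The red Lpin1 part is at least 44.7 in each vehicle-treated mouse and at most 35.9 in each FGF19-treated mouse, while the Lpin2 part runs from 44.8 to 53.9 with vehicle and from 42.0 to 61.7 with FGF19.

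Gpam encodes the mitochondrial glycerol-3-phosphate acyltransferase GPAT1, and its gene spans 55144224 to 55173937 on chromosome 19. The 3 vehicle-treated mice were at 93.1, 179 and 189.9 CPM and the 3 FGF19-treated mice at 90.4, 97.7 and 53.5 CPM, in the order of replicates 1, 2 and 3. Vehicle replicate 1 lay within the FGF19 range, and the other 2 vehicle-treated mice were well above it. Its log2 fold change was -0.94 (95% interval -1.56 to -0.31, standard error 0.279), with an edgeR adjusted p of 0.0777. Without vehicle replicate 1 it was -1.20 with an adjusted p of 0.0215 in that edgeR test. Without each of the other 5 libraries it did not pass, with log2 fold changes from -1.10 to -0.71 and edgeR adjusted p from 0.109 to 0.254.

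Agpat6, now named Gpat4, encodes the acyltransferase of the endoplasmic reticulum that catalyses the same step (chromosome 8, 24283418 to 24318925). Its values were 242, 165 and 189.9 CPM in vehicle replicates 1, 2 and 3 and 144, 147 and 149 CPM in FGF19 replicates 1, 2 and 3. The groups did not overlap, and the coefficient of variation was 19.5% with vehicle and 1.51% with FGF19. Agpat6 had a log2 fold change of -0.44 (95% interval -0.73 to -0.15, standard error 0.129), with an edgeR adjusted p of 0.0742. Without vehicle replicate 1, the highest library, it was -0.28 (edgeR adjusted p = 0.170), and without vehicle replicate 2, the lowest of that group, -0.56 (edgeR adjusted p = 0.0326). With all 6 libraries DESeq2 gave an adjusted p of 0.0240.

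The mouse with the least Gpam among the vehicle group was thus the one with the most Agpat6. Added together per kilobase, Gpam and Agpat6 gave 85.6, 88.8 and 97.8 with vehicle and 60.2, 62.8 and 51.7 with FGF19, which is 0.642 of the vehicle mean with no overlap, given as a description without a test. Gpam made up 26.5%, 50.2% and 48.6% of the summed glycerol-3-phosphate acyltransferases (with Agpat9 and Gpat2 included) in vehicle replicates 1, 2 and 3 and 35.8%, 36.5% and 23.7% in FGF19 replicates 1, 2 and 3. These shares overlapped (two-sided exact permutation test, p = 0.3).

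Agpat2 and Agpat3 encode lysophosphatidate acyltransferases, and loss of human AGPAT2 is known as a cause of lipodystrophy. Agpat2 lies on chromosome 2 from 26449107 to 26459730, with a gene model of only 837 exonic bases, and Agpat3 on chromosome 10 from 77734308 to 77814445. For Agpat2 the vehicle replicates 1, 2 and 3 were at 116, 131 and 111 CPM and the FGF19 replicates at 107, 116 and 147 CPM, and the groups overlapped. Its log2 fold change was 0.04 with a 95% interval from -0.24 to 0.32 (adjusted p = 0.874, edgeR's quasi-likelihood test). For Agpat3 the vehicle replicates were at 317, 338 and 336 CPM and the FGF19 replicates at 296, 289 and 322 CPM. Its log2 fold change was -0.13 with a 95% interval from -0.32 to 0.06 (adjusted p = 0.417, same test), so a fall below 0.802 of vehicle lies outside the interval. Agpat3 also varied least among the vehicle-treated mice, with a coefficient of variation of 3.51%.

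Dgat1 and Dgat2 encode the unrelated enzymes that complete triglyceride, of which DGAT2 is known for newly made and DGAT1 for exogenous fatty acids. Dgat1 (chromosome 15, 76332445 to 76342248) was at 57.1, 30.6 and 32.3 CPM in vehicle replicates 1, 2 and 3 and at 22.1, 23.2 and 28.5 CPM in FGF19 replicates 1, 2 and 3. The groups did not overlap, but FGF19 replicate 3 came close to the 2 lower vehicle-treated mice and vehicle replicate 1 stood far above them. The log2 fold change was -0.70 (95% interval -1.20 to -0.20, standard error 0.223), with an edgeR adjusted p of 0.0943. Without vehicle replicate 1 it was -0.35 (edgeR adjusted p = 0.184), and with all 6 libraries DESeq2 gave an adjusted p of 0.0166.

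Dgat2 (chromosome 7, 106302173 to 106331223) was at 380.3, 402 and 536 CPM in vehicle replicates 1, 2 and 3 and at 321, 340.2 and 367 CPM in FGF19 replicates 1, 2 and 3. The groups did not overlap, and vehicle replicate 3 was the highest library. The log2 fold change was -0.36 (95% interval -0.66 to -0.06, standard error 0.132), with an edgeR adjusted p of 0.140. Without vehicle replicate 3 it was -0.19 (adjusted p = 0.409). Dgat2 was 83.8%, 91.1% and 92.8% of the summed DGAT level per kilobase in the vehicle-treated mice and 91.9%, 92.0% and 90.9% in the FGF19-treated mice, with overlap (two-sided exact permutation test, p = 0.8).

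Mogat1, a monoacylglycerol acyltransferase known for its rise in fatty liver, was barely measured (chromosome 1, 78507635 to 78534748). It had 35, 10 and 17 reads in vehicle replicates 1, 2 and 3 and 22, 18 and 16 in FGF19 replicates 1, 2 and 3, or between 0.530 and 1.67 CPM. The log2 fold change was -0.25 with a 95% interval from -1.18 to 0.67 (adjusted p = 0.772, edgeR's quasi-likelihood test), so the interval holds changes from 0.440 to 1.60 of vehicle. Its coefficient of variation among the vehicle-treated mice was 58.0%.

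**Figure D3:**
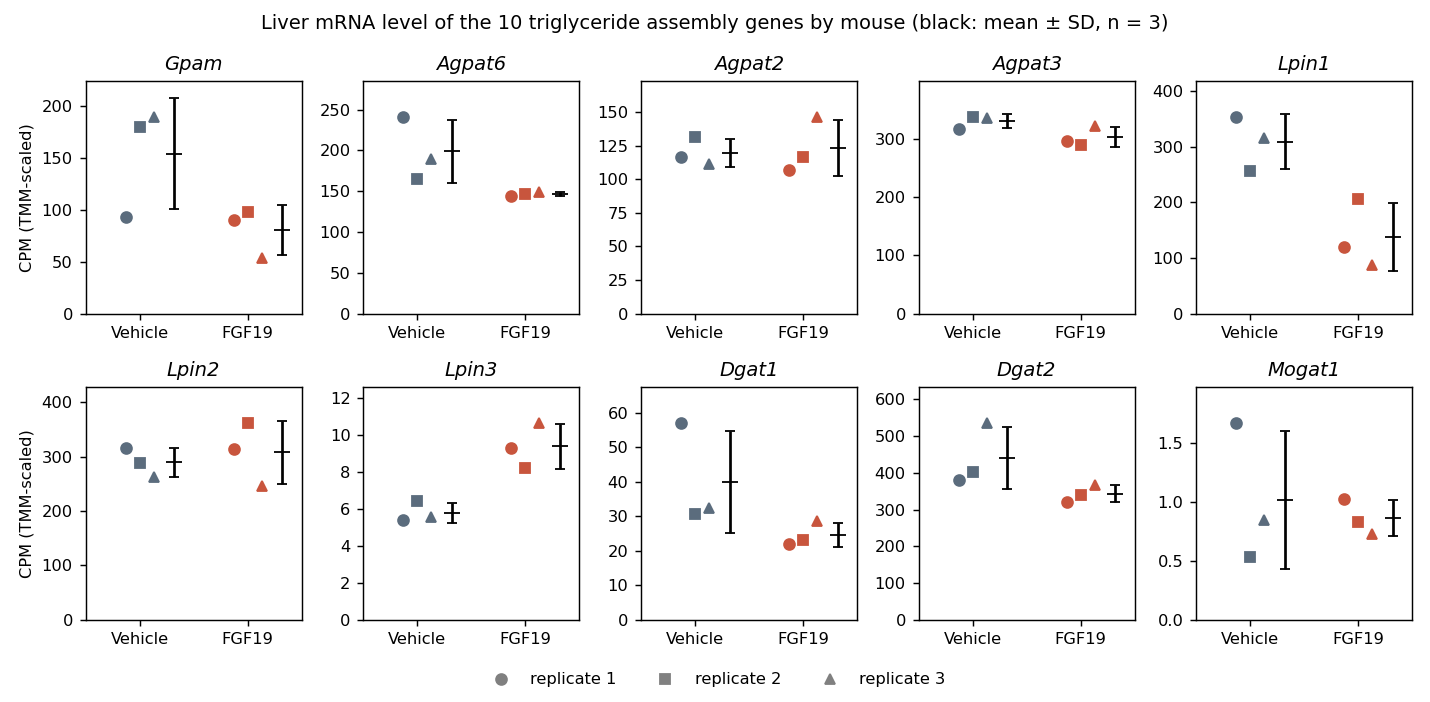
TMM-scaled CPM (vertical axes, each from 0) of the 10 genes in the vehicle and FGF19 groups, 1 point per mouse with the symbol giving the replicate number, and the mean ± SD of 3 mice in black. In Lpin1, Agpat6, Dgat1 and Dgat2 the 3 FGF19 points lie below the 3 vehicle points, and in Lpin3 above them.

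Compared per kilobase of exon, the 10 genes covered a wide range of levels. In vehicle-treated mice Dgat2 was highest at 195 ± 37.5 CPM per kilobase (SD, n = 3), followed by Agpat2 at 143 ± 12.5 and Agpat3 at 96.1 ± 3.37, and the ranges of these 3 did not overlap. Lpin1, Agpat6, Lpin2 and Gpam came next with means from 53.9 to 40.3, and each overlapped its neighbour in this order, as did Gpam and Dgat1 at 22.8 ± 8.46. Lpin3 at 1.64 ± 0.156 and Mogat1 at 0.841 ± 0.487 were far below and did not overlap each other. With FGF19 the order was Dgat2 (152 ± 10.2), Agpat2 (147 ± 24.7), Agpat3 (88.0 ± 5.05), Lpin2 (52.4 ± 9.94), Agpat6 (37.2 ± 0.562), Lpin1 (24.1 ± 10.6), Gpam (21.0 ± 6.19), Dgat1 (14.0 ± 1.96), Lpin3 (2.67 ± 0.350) and Mogat1 (0.712 ± 0.126). The neighbours that overlapped in this group were Dgat2 with Agpat2, Lpin1 with Gpam, and Gpam with Dgat1. Lpin1 thus stood at place 4 of the 10 with vehicle and at place 6 with FGF19, below Lpin2 and Agpat6.

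**Figure D4:**
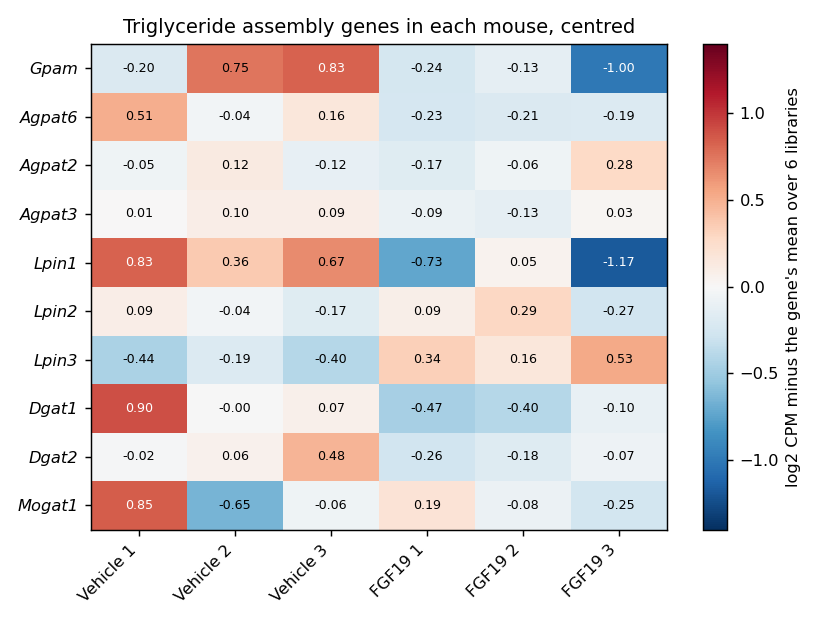
Log2 CPM of each of the 10 genes (rows) in each of the 6 mice (columns), minus the mean of the gene over the 6 mice, with red above and blue below that mean. FGF19 replicate 3 has the lowest Lpin1 (-1.17) and Gpam and the highest Lpin3 (0.53), and vehicle replicate 1 the highest Lpin1 (0.83), Dgat1 (0.90) and Agpat6 (0.51).

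Single mice did not stand apart in the same way for every gene. Vehicle replicate 1 held the highest value of Lpin1, Agpat6, Dgat1 and Mogat1 and the lowest vehicle value of Gpam, Dgat2 and Agpat3. FGF19 replicate 3 held the lowest value of Lpin1, Gpam and Lpin2 and the highest value of Lpin3 and Agpat2. FGF19 replicate 2 had the highest Lpin1 and Gpam and the lowest Lpin3 of its group.

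The genes with the profile most like that of Lpin1 over the 6 libraries, among 7542 tested genes with a mean of at least 10 CPM, were 8430408G22Rik, Inmt and Arid5b, with root mean square differences of centred log2 CPM of 0.252, 0.253 and 0.259. The closest to Lpin3 were Cpb2, Tmem176a and Parp3, at 0.0569, 0.0764 and 0.0859. Inmt, a methyltransferase gene, was at 370.2, 215 and 304 CPM in vehicle replicates 1, 2 and 3 and at 130.3, 164 and 119.2 CPM in FGF19 replicates 1, 2 and 3. Cpb2, which encodes a plasma carboxypeptidase that slows fibrinolysis, was at 260.1, 301 and 248 CPM with vehicle and 398, 381 and 468 CPM with FGF19.

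Of 55 other tested genes around triglyceride assembly, edgeR called 2 lower and 1 higher (adjusted p under 0.05), beside 2.84% and 4.56% of all genes tested, and the median log2 fold change was -0.06. These counts are near the share over all genes, and the 3 genes are given because they were called. Acsl1, the main long-chain acyl-CoA synthetase of liver that supplies the acyl groups, was at 2187, 1895 and 1838 CPM in vehicle replicates 1, 2 and 3 and at 1403, 1531 and 1401 CPM in FGF19 replicates 1, 2 and 3 (log2 fold change -0.45 with a standard error of 0.101, edgeR adjusted p = 0.0280). Pemt, which makes phosphatidylcholine from phosphatidylethanolamine, was at 194, 238 and 246 CPM with vehicle and 153, 147 and 173 CPM with FGF19 (log2 fold change -0.52 with a standard error of 0.113, edgeR adjusted p = 0.0252). Ppapdc1b, of the family of membrane lipid phosphatases that is distinct from the lipins, rose from 24.3, 17.4 and 20.6 CPM to 39.4, 45.3 and 32.5 CPM (log2 fold change 0.91 with a standard error of 0.152, edgeR adjusted p = 0.00800). The call of Ppapdc1b held with any of the 6 libraries left out. That of Acsl1 held only without FGF19 replicate 3, with an edgeR adjusted p from 0.0531 to 0.126 without each of the other 5. That of Pemt was lost without vehicle replicate 2 or 3 or FGF19 replicate 1 or 2, at an edgeR adjusted p from 0.0755 to 0.112. Among the 10 other acyltransferases of the pathway 0 were called by edgeR and 0 by DESeq2, 3 had an unadjusted p under 0.05 in edgeR, as did 22.9% of all genes tested, and their median was 0.06. The 2 genes of the phosphatase that activates lipins at the nuclear envelope, Ctdnep1 and Tmem188, were not called either, with log2 fold changes of 0.19 and 0.07.

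The libraries held between 18994654 and 22920056 counted reads. The summed level of 7 hepatocyte markers was between 98944 and 103541 CPM in vehicle-treated mice and between 92922 and 102240 CPM in FGF19-treated mice, and Alb made up most of it. Of the 7, 0 were called by edgeR or DESeq2 and 3 had an unadjusted p under 0.05 in edgeR, beside 22.9% of all genes tested. These 3 were Cps1 and Hnf4a, with lower values without overlap (log2 fold changes -0.35 and -0.31, edgeR adjusted p = 0.125 and 0.120), and Tat, with overlap (0.39, edgeR adjusted p = 0.157). Since several of the 10 genes are also expressed in fat, 7 adipocyte markers were read: Lep and Retn had 0 reads in every library, Adipoq was at most 0.106 CPM and Plin1 at most 0.0453 CPM, where a count of 3 corresponds to between 0.136 and 0.159 CPM. Their sum was between 485 and 857 CPM with vehicle and between 238 and 344 CPM with FGF19. Most of it was Car3, which liver expresses itself and which was lower after FGF19 (log2 fold change -1.23, edgeR adjusted p = 0.0138), while Fabp4 was higher (0.51, adjusted p = 0.0344). Cidec, a lipid droplet protein that liver also expresses, had a log2 fold change of 0.77 with overlap (adjusted p = 0.115 with edgeR and 0.0250 with DESeq2). The 7 markers of Kupffer cells and macrophages did not share a direction. Marco and Cd68 were higher (log2 fold changes 2.29 and 0.66, edgeR adjusted p = 0.00105 and 0.00932), while Vsig4 had lower values without overlap (-0.54, adjusted p = 0.0755 with edgeR and 0.0285 with DESeq2) and Clec4f and Cd5l had log2 fold changes of -0.29 and -0.22 that did not pass either test. Emr1 had higher values without overlap (0.36, adjusted p = 0.155 with edgeR and 0.240 with DESeq2), and Csf1r had a log2 fold change of 0.04 with overlap. The sum of these 7 markers was between 184 and 232 CPM with vehicle and between 191 and 225 CPM with FGF19. The sum of 5 neutrophil markers was between 0.667 and 1.74 CPM with vehicle and between 3.49 and 4.69 CPM with FGF19, and S100a9, the only one tested, was higher (log2 fold change 2.16, edgeR adjusted p = 0.0292). Of 6 skeletal muscle markers, 5 were at 0 in every library. Of 6 markers of sinusoidal endothelial cells Cdh5 was higher (0.43, edgeR adjusted p = 0.0275) and Clec4g had lower values without overlap (-0.38, adjusted p = 0.0736 with edgeR and 0.0461 with DESeq2). Of stellate cells, cholangiocytes and the 2 tested enterocyte markers 0 were called by edgeR or DESeq2, with 2, 0 and 0 at an unadjusted p under 0.05 in edgeR. The part of these cells in the values of the 10 genes was not tested.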

How the data were processed

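RNA-seq of 6 mouse livers (3 vehicle, 3 FGF19, paired-end reads) was used. The authors trimmed reads with Trimmomatic 0.36 and aligned them with STAR (2.5.3a in the submitters' processing notes; the paper gives other versions). Per the file headers, the deposited counts are raw reads on mm9 exons from featureCounts 1.5.2, without strand, with mates counted separately and multi-mapping reads left out. None of the 10 genes shared exon bases with another gene. The authors' own table of fold changes, mean log2 CPM, p-values and FDR was not used.

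The tests were run with edgeR 4.0.16 under R 4.3.3 (filterByExpr, TMM, quasi-likelihood test, Benjamini-Hochberg adjustment over 12559 genes). Intervals are 95% and come from that fit. The fits were tested on simulated data. Chi-square statistics per degree of freedom between libraries were at least 8.69, so each pair of libraries differed by more than counting noise. That the 6 libraries came from separate mice rests on the study's methods. The alternatives used DESeq2 1.42.0, limma-voom (limma 3.58.1), other scalings and filters, a replicate block and leaving out each library. Named genes outside the 10 were those of the pathway lists with an adjusted p under 0.05, and the 3 closest in profile, with a prior count of 2, to each of the 10 that was called. Agpat9 and Gpat2 were named as part of a summed level, Ctdnep1 and Tmem188 as the whole of their list, markers to describe theirs, and 6 phospholipid genes in the closing section after their values were seen. The 10 genes and the lists were chosen with earlier results of these data known. No protein sequences were used here.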

Additional observations from a re-analysis of the deposited data

How the results depend on the processing

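Across 14 other fits Lpin1 kept its direction and was called in 11 (log2 fold change -1.57 to -0.92), and Lpin3 in 10 (0.60 to 0.79). Only left-out libraries, and for Lpin3 also the replicate block (adjusted p = 0.0677), ended a call. Of the 10 genes, 3 were lower with DESeq2 (Lpin1, Agpat6 and Dgat1), 4 with the likelihood ratio test (also Gpam), 2 with no filter on low counts (also Gpam) and 3 at p under 0.01. Genes called lower over all genes numbered 519, 579, 395 and 626 in these 4 settings, against 357. With each library left out, between 0 and 2 of the 10 genes were lower (2 without vehicle replicate 2) and 0 and 1 higher. Between 0 and 6 other pathway genes were lower and 1 and 4 higher, and between 92 and 932 of all genes lower and 243 and 1009 higher, where these pathway and whole-table counts were highest without FGF19 replicate 3. Values near 0 changed sign in these fits: Agpat2 between -0.10 and 0.14, Lpin2 between -0.046 and 0.23, Mogat1 between -0.55 and 0.31, and the difference in the Dgat2 share between -0.38 and 4.12 percentage points. These fits also rest on fewer samples, and the cause of these changes was not tested.

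Same-numbered mice did not deviate together (r = -0.03, -0.18 and -0.18 across genes), and differently numbered mice gave r from -0.13 to 0.23. With only 3 mice a group, each centred on its group mean, these values cannot decide whether the numbers mark pairs. With the replicate block, 164 of all genes were lower and 370 higher, against 357 and 573, with 1 of the 10 genes lower and 0 higher, and 1 other pathway gene lower. That gene was Pemt (edgeR adjusted p = 0.0421), while the block ended the call of Acsl1 (edgeR adjusted p = 0.0815). Mogat1 rests on between 10 and 35 reads a library.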

Other observations

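Genes of the branch that turns phosphatidate and diacylglycerol into phospholipids were read beside the triglyceride genes. Of 18 tested, 14 had a negative log2 fold change, as did 6291 of all 12559 genes tested. The median was -0.18, against -0.00076 over all genes tested. In 7 all FGF19 values lay under the lowest vehicle value, beside 13.8% of all genes tested. These 7 were Pemt, Pcyt1a, Pcyt2, Chpt1, Ptdss2, Cds2 and Crls1, and those other than Pemt are named after their values were seen. Pcyt2, the rate-limiting enzyme for phosphatidylethanolamine, was at 422, 449 and 409.7 CPM in vehicle replicates 1, 2 and 3 and at 333, 313 and 389.7 CPM in FGF19 replicates 1, 2 and 3. Pcyt1a, its counterpart for phosphatidylcholine, was at 102, 84.6 and 97.0 CPM with vehicle and 75.1, 82.6 and 68.0 CPM with FGF19. Only Pemt of the 18 passed an adjusted p of 0.05 in edgeR's quasi-likelihood test, with 0.107 for Pcyt2 and 0.0962 for Pcyt1a.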
